A study of Mus musculus with 11 samples.

Results

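Interferon-stimulated genes are described here in the pancreas and the epididymal adipose tissue of mice with obesity-related alcohol-induced acute pancreatitis (OA-AP). The 36 genes were chosen by name as targets of interferon signaling, and all 36 were found by their gene symbol among the 54532 genes of the pancreas count table and the 46078 genes of the adipose count table. All mice were wild-type C57BL/6 and 16 weeks old by their labels. OA-AP mice were fed a high-fat diet (60 kcal % fat) for 12 weeks and then received 2 intraperitoneal injections of ethanol (2 g/kg each) 1 h apart. Control mice were fed a chow diet (10 kcal % fat) for the same 12 weeks and received saline injections, and tissues were collected 12 h after the first injection. The groups thus differ in diet and in ethanol together, and the part of each in a difference cannot be told apart. RNA sequencing covered 5 pancreas samples, 2 of them from controls, and 6 adipose samples, 3 of them from controls. The labels do not say whether pancreas and adipose libraries of the same number came from one mouse.

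Interferons are cytokines that cells release on sensing foreign or misplaced nucleic acid. Type I interferons bind the Ifnar1 and Ifnar2 receptor and act through the kinases Jak1 and Tyk2 on the ISGF3 complex, which holds Stat2 and Irf9, whereas interferon gamma acts through Jak1 and Jak2. ISGF3 binds the interferon-stimulated response element (ISRE) in front of its targets, and interferon gamma acts on the gamma-activated site (GAS). The targets block viral entry, translation and replication, sense RNA, attract lymphocytes or feed back on the pathway, and many of them are also transcribed at a low level in healthy tissue.

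The promoter sequences are shown first because these elements tie the genes together as a family. RefSeq promoter sequences on GRCm38.p6, each from 250 bases before to 50 bases after a gene's start, were matched to 28 of the 36 genes by symbol. Letters of the ISRE type (GAAANNGAAA, either strand) were found in 16 of these 28 genes and in 3.99% of all 27025 genes with a promoter of the same length (3.44% of all 32851 promoters). Letters of the GAS type (TTCNNNGAA, which reads the same on either strand) were found in 7 of the 28 genes and in 9.55% of all genes (8.30% of all promoters), and in Bst2 they overlap the ISRE-type letters. The stretches below are from some of the genes with ISRE-type letters, printed 5′ to 3′ on the strand of the gene, with those letters in capitals. Genes without the letters are not shown. Among them are Irf7, Cmpk2, Xaf1, Oasl2 and Irf1, which were downregulated in the pancreas. Runs of capitals longer than the motif are overlapping matches, and TTTC in place of GAAA marks a match on the opposite strand.
Isg15 (chr4:156200865-156200906, minus strand): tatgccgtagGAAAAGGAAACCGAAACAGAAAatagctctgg
Ifit1 (chr19:34640775-34640823, plus strand): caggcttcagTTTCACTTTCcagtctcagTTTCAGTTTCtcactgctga
Ifit3 (chr19:34583363-34583426, plus strand): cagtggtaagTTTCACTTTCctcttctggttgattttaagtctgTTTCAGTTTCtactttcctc
Oas1a (chr5:120907526-120907555, minus strand): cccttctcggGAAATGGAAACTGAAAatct
Bst2 (chr8:71537577-71537612, minus strand): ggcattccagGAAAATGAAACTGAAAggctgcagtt
Gbp3 (chr3:142559989-142560024, plus strand): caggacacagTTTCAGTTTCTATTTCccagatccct
Rsad2 (chr12:26456553-26456582, minus strand): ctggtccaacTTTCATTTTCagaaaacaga
Ifitm2 (chr7:140955988-140956017, minus strand): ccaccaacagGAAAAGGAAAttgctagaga
In these stretches Isg15 held 3 overlapping matches, Ifit1 and Ifit3 each held 2 separate ones, and Ifitm2 and Rsad2 each held 1. A match describes letters in the sequence and is not a measured binding site.

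The pancreas libraries held 14188832 to 17238919 counts on genes, and the adipose libraries 20825177 to 27928097. Levels are in CPM, with each count divided by the TMM-scaled size of its library within its tissue. TMM factors set the bulk of genes equal between libraries, and a level compared between genes is given as CPM per kb of gene length. DEGs were genes with an adjusted p-value under 0.05 (edgeR quasi-likelihood test, Benjamini-Hochberg over all genes tested) and a 1.5-fold or larger change. The tissues matched their labels. Acinar cell markers, the digestive enzymes of the exocrine pancreas, took 70.0% and 71.9% of the counts of the control pancreas libraries and 54.5%, 56.8% and 57.7% of those of the OA-AP libraries, and adipocyte markers took 3.52% to 4.83% of the counts of each adipose library. In bulk tissue, fewer cells of a type and less RNA per cell cannot be told apart. In 1 adipose library, control replicate 2, the acinar markers took 0.937% of the counts, against 0.001% to 0.002% in the other 5, and results that rest on this library are given with and without it.

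Many interferon-stimulated genes were downregulated in the pancreas of OA-AP mice, 13 of them with TMM factors and 6 with library totals alone. On library totals 3.93% of all genes were downregulated. Of the 30 genes with enough counts to be tested, 13 were downregulated and 0 were upregulated, whereas 13.5% of all 12884 genes tested were downregulated and 16.2% were upregulated. A gene could pass the filter on low counts through its control libraries alone. Of the 20 genes with at least 10 counts in every pancreas library, 10 were downregulated, against 14.9% of all genes in that fit. At an unadjusted p under 0.05, 18 genes were lower and 0 higher, against 20.6% and 24.2% of all genes. The median log2 fold change of the 30 genes was -1.27 and that of all genes was 0.039, and the sign was negative in 27 of 30 genes and in 48.1% of all genes. In 19 of the 30 genes every OA-AP library was under both control libraries, which held for 29.4% of all genes. In 1 gene, Ifitm1, every OA-AP library was over both control libraries, which held for 32.9% of all genes. Levels were low on the whole, with a median over the 36 genes of 3.76 CPM in control mice and 1.10 CPM in OA-AP mice. The downregulated genes covered most roles of the family, as follows, and the plot of fold changes shows all of them beside those in adipose tissue.

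**Figure D1:**
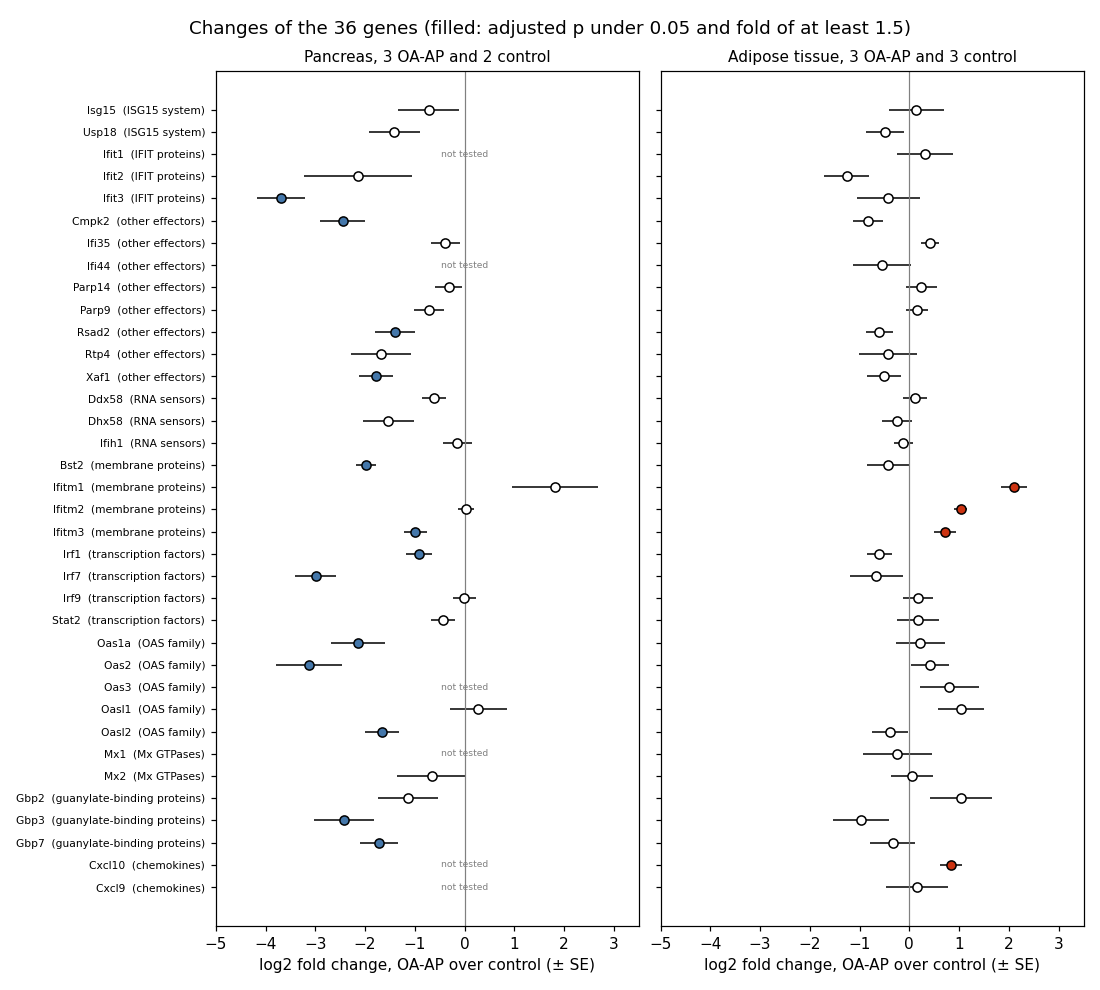
Log2 fold change of each of the 36 genes, OA-AP over control, with its standard error, in the pancreas (left, 3 OA-AP and 2 control libraries) and in adipose tissue (right, 3 and 3). Filled points passed both thresholds (blue lower, red higher): 13 genes lie to the left in the pancreas and 4 to the right in adipose tissue, and 6 genes had too few counts in the pancreas to be tested.

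Transcription factors of the pathway come first. Irf7, which amplifies type I interferon production and is itself induced by interferon, stood at 9.01 and 4.89 CPM in the control pancreas libraries and at 0.63, 1.26 and 0.732 CPM in OA-AP mice. The groups lay far apart, and the fold change of 7.96 was among the larger ones (log2 fold change -2.99 ± 0.41 (SE), adjusted p = 0.00143). Irf7 overlaps Phrf1 on the opposite strand, whose counts in the pancreas reached 349 against 105 for Irf7. The library kit does not mark strand, so reads of these genes may be shared. Irf1, a factor induced by interferon gamma, fell less, from a mean of 6.79 ± 0.585 CPM (SD, n = 2) to 3.60 ± 0.845 CPM (SD, n = 3), with a log2 fold change of -0.92 (adjusted p = 0.0294). Stat2 and Irf9, the parts of ISGF3 that are members here, did not pass. Irf9, which overlaps Rnf31 on the same strand, had a mean of 15.3 CPM in each group, and Stat2 had means of 18.1 and 13.5 CPM with overlapping libraries (adjusted p = 0.215).

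IFIT proteins bind viral RNA that lacks the host's cap methylation and keep it from being translated. Ifit3 had the largest fold change of the family. It stood at 5.06 and 3.49 CPM (59 and 35 counts) in controls against 0.158, 0.515 and 0.314 CPM (3, 9 and 6 counts) in OA-AP mice. This is a 12.9-fold lower level (log2 fold change -3.69 ± 0.48, adjusted p = 0.00123), on few counts in the OA-AP mice. Ifit3 has a near-identical neighbor, Ifit3b, and how reads were split between the copies is not known. Ifit1 had too few counts to be tested, with 49 and 9 counts in controls against 4, 9 and 5 in the OA-AP libraries. Ifit2 had 24 and 21 counts in controls against 1, 23 and 1 in the OA-AP libraries, and did not pass the test (adjusted p = 0.171).

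OAS enzymes make the messenger 2-5A, which turns on RNase L to cut RNA. Of the 5 OAS and OAS-like genes 3 were downregulated. Oas2 stood at 18.4 and 6.78 CPM in controls against 0.578, 2.69 and 1.10 CPM in OA-AP mice. All OA-AP libraries were lower, but the controls themselves stood far apart (log2 fold change -3.13 ± 0.66, adjusted p = 0.0148). Oas1a stood at 2.66 and 1.70 CPM in controls against 0.263, 0.801 and 0.418 CPM in OA-AP mice (log2 fold change -2.14 ± 0.54, adjusted p = 0.0185). Oasl2, a relative that carries ubiquitin-like domains, stood at 7.81 and 4.49 CPM in controls against 2.21, 2.17 and 1.46 CPM in OA-AP mice (log2 fold change -1.66 ± 0.34, adjusted p = 0.00777). The groups did not overlap in any of the 3. Oasl1 had means of 0.714 and 0.876 CPM and did not pass, and Oas3 had at most 9 counts in any pancreas library and was not tested.

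Guanylate-binding proteins are GTPases that coat and break open vacuoles holding pathogens. Gbp3 stood at 5.06 and 2.79 CPM in controls against 0.42, 1.43 and 0.366 CPM in OA-AP mice (log2 fold change -2.42 ± 0.60, adjusted p = 0.018). Gbp7 stood at 4.12 and 2.99 CPM in controls against 0.84, 0.973 and 1.41 CPM in OA-AP mice (log2 fold change -1.72 ± 0.38, adjusted p = 0.0105). Both were downregulated with no overlap between the groups. Gbp2 had lower values in every OA-AP library, but OA-AP replicate 2 at 2.75 CPM was close to the controls at 3.17 and 2.99 CPM, and the gene did not pass (adjusted p = 0.182). The Mx GTPases, which trap viral nucleocapsids, had too few counts for a firm statement: Mx1 was not tested with at most 15 counts, and Mx2 did not pass (adjusted p = 0.486).

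Of the 4 membrane proteins that stop enveloped viruses, 3 held the highest levels of the family. Per kb of gene length, Ifitm3 at 97.9 CPM, Bst2 at 29.4 CPM and Ifitm2 at 18.4 CPM led the control pancreas, whereas Ifitm1 stood at 0.581 CPM. Bst2 (tetherin), which ties budding virions to the cell surface, stood at 28.8 and 24.3 CPM in controls against 5.04, 8.07 and 7.11 CPM in OA-AP mice. The replicates of each group were close together, and Bst2 had the smallest adjusted p-value of the family (log2 fold change -1.98 ± 0.21, adjusted p = 0.000497). Ifitm3, which blocks fusion of viruses in endosomes, stood at 83.4 and 49.4 CPM in controls against 34.9, 38.2 and 27.5 CPM in OA-AP mice (log2 fold change -0.99 ± 0.24, adjusted p = 0.0163). Its neighbors on chromosome 7, Ifitm1 and Ifitm2, did not pass. Ifitm2 had means of 12.1 ± 1.40 CPM (SD, n = 2) and 12.3 ± 0.878 CPM (SD, n = 3), and Ifitm1 stood at 0.772 and 0.499 CPM in controls against 1.21, 0.858 and 4.76 CPM in OA-AP mice. Ifitm1 was the member with the highest log2 fold change, 1.82 ± 0.87, but OA-AP replicate 3 alone stood well over the other libraries and the gene did not pass (adjusted p = 0.147).

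Among the other effectors, Cmpk2, a mitochondrial nucleotide kinase that neighbors Rsad2, stood at 6.95 and 3.39 CPM in controls against 0.84, 1.37 and 0.628 CPM in OA-AP mice (log2 fold change -2.45 ± 0.45, adjusted p = 0.00489). Rsad2 (viperin), which makes a chain-terminating nucleotide, stood at 5.75 and 3.19 CPM in controls against 1.10, 2.12 and 1.88 CPM in OA-AP mice (log2 fold change -1.40 ± 0.40, adjusted p = 0.0288). Xaf1, a pro-apoptotic partner of XIAP, stood at 3.0 and 3.59 CPM in controls against 1.10, 0.915 and 0.837 CPM in OA-AP mice (log2 fold change -1.78 ± 0.35, adjusted p = 0.00641). All 3 were downregulated without overlap, and Xaf1 was the only one of them in which control replicate 1 was not the higher control. Rtp4, an interferon-induced chaperone and antiviral factor, was lower in every OA-AP library but did not pass (log2 fold change -1.68 ± 0.60, adjusted p = 0.0658). The ADP-ribosyltransferase Parp14 and its relative Parp9, together with Ifi35, had overlapping groups and adjusted p-values of 0.385, 0.0983 and 0.323. Ifi44 was not tested, with 33 and 8 counts in controls against 7, 9 and 2 in the OA-AP libraries.

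RNA sensors and the ISG15 system did not pass the test in the pancreas. Ddx58, which encodes the sensor RIG-I, had means of 5.69 and 3.71 CPM (adjusted p = 0.0878), Dhx58 (LGP2) had means of 1.61 and 0.559 CPM (adjusted p = 0.0528), and both were lower in every OA-AP library. Ifih1, which encodes MDA5, had means of 4.92 and 4.47 CPM (adjusted p = 0.73). Isg15, the ubiquitin-like modifier that gives the system its name, had 15 and 10 counts in controls against 6, 21 and 11 in OA-AP mice (adjusted p = 0.396). Usp18, which removes ISG15 and damps receptor signaling, was lower in every OA-AP library (log2 fold change -1.41 ± 0.52, adjusted p = 0.0682). The chemokines Cxcl9 and Cxcl10, which attract T cells, were at or near the floor of detection, with at most 2 and 4 counts in any pancreas library. Of the 13 downregulated genes 12 had a promoter sequence and 7 of these held ISRE-type letters, and of the 17 genes that were tested and did not pass 11 had one and 6 held the letters.

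**Figure D2:**
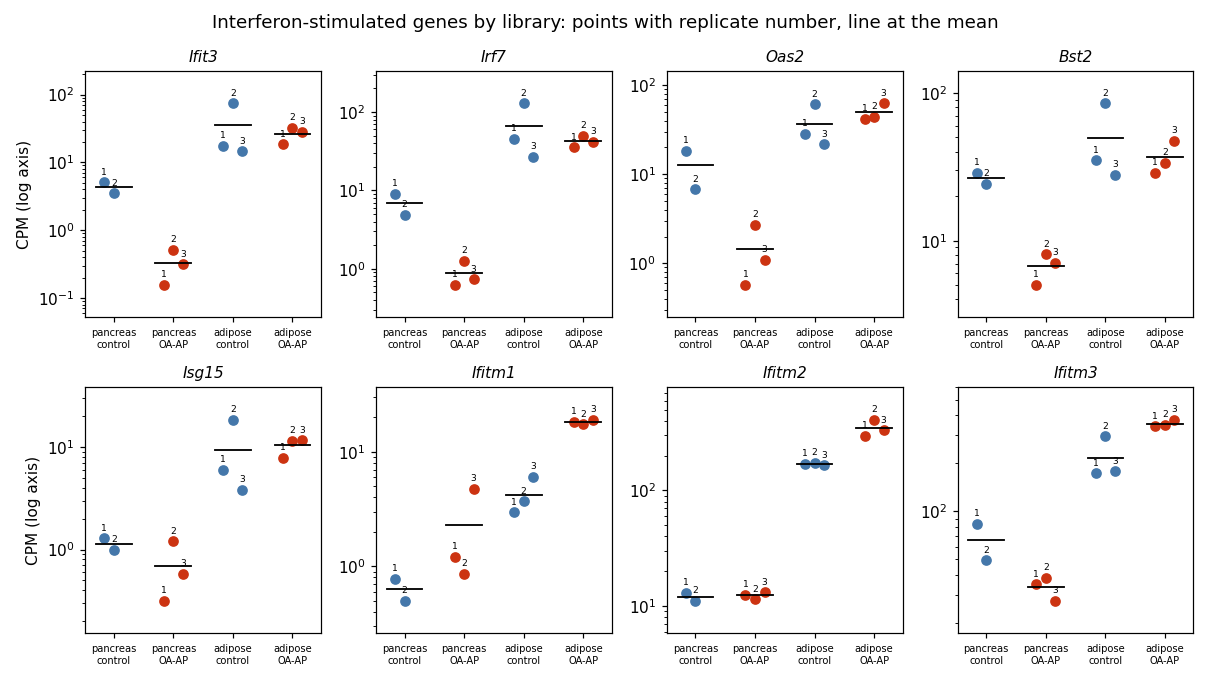
CPM (log axis) of 8 of the genes in each library, with replicate numbers beside the points and a line at the group mean; the groups are 2 control and 3 OA-AP pancreas libraries and 3 control and 3 OA-AP adipose libraries. Ifit3, Irf7, Oas2 and Bst2 are lower in each OA-AP pancreas library than in each control (the tissues were scaled separately), adipose control replicate 2 is the highest adipose control for Isg15 and these 4, and Ifitm1, Ifitm2 and Ifitm3 are higher in each OA-AP adipose library than in each adipose control.

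These pancreas results depended on how libraries were scaled and on the controls. Without the TMM factors, on library totals alone, the all-gene median moved from 0.039 to 0.749 and that of the 30 genes from -1.27 to -0.575, and acinar transcripts took the smaller share of OA-AP libraries given above. On that scale 6 genes were downregulated (Bst2, Cmpk2, Gbp3, Ifit3, Irf7 and Oas2) and 3 were upregulated (Ifitm1, Ifitm2 and Irf9). Of all genes 3.93% were downregulated and 45.4% upregulated there, and upregulated genes made up 92.0% of all DEGs in place of 54.5%. The distance between the median of the 30 genes and that of all genes was nearly the same on each scale, at -1.31 and -1.32. Control replicate 1 was the higher of the 2 controls in 27 of the 30 genes, against 47.6% of all genes, with a median of 1.61-fold over control replicate 2 on the log2(CPM + 0.5) scale. Without control replicate 1, which left 1 control library, the median log2 fold change was -0.82 for the 30 genes and 0.078 for all genes. Without control replicate 2 it was -1.743 over 33 genes and 0.061 for all genes. Without OA-AP replicate 1 the downregulated genes numbered 8, against 9.88% of all genes in that fit. With DESeq2 size factors 14 were downregulated and with TMM factors taken without acinar genes 13, against 14.6% and 13.6% of all genes.

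In adipose tissue 4 genes were upregulated, Ifitm1, Ifitm2, Ifitm3 and Cxcl10, and the median of the family lay near that of all genes. All 36 genes were tested, 4 were upregulated and 0 downregulated, where 12.1% and 13.0% of all 15839 genes were. At an unadjusted p under 0.05, 4 genes were higher and 3 lower, against 24.2% and 23.3% of all genes. The median log2 fold change was 0.079 for the 36 genes and -0.015 for all genes. In the 4 upregulated genes every OA-AP library was over every control, which held for 26.4% of all genes, and in 3 genes every OA-AP library was under every control (Ifit2, Cmpk2 and Irf1), which held for 26.0% of all genes. Levels were higher than in the pancreas, which was scaled separately, with a median over the 36 genes of 35.6 CPM in control mice and 26.2 CPM in OA-AP mice.

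Among the upregulated membrane proteins, Ifitm3 and Ifitm2 were the most abundant members of the family in adipose tissue. Per kb of gene length, Ifitm3 and Ifitm2 led at 319 and 259 CPM in control mice. Ifitm1, which restricts viruses at the cell surface, stood at 2.95, 3.69 and 6.06 CPM in controls against 18.3, 17.4 and 19.1 CPM in OA-AP mice. The OA-AP replicates were close together and 4.30-fold over the controls (log2 fold change 2.10 ± 0.26, adjusted p = 0.00165). Ifitm2 stood at 171, 173 and 165 CPM in controls against 297, 410 and 332 CPM in OA-AP mice (log2 fold change 1.03 ± 0.14, adjusted p = 0.00213). Ifitm3 stood at 174, 296 and 179 CPM in controls against 342, 348 and 376 CPM in OA-AP mice (log2 fold change 0.72 ± 0.21, adjusted p = 0.0359). In Ifitm3, unlike Ifitm1 and Ifitm2, control replicate 2 lay well over the other controls. Bst2, the remaining membrane protein, had overlapping groups with means of 49.3 ± 31.2 CPM (SD, n = 3) and 36.8 ± 9.67 CPM (SD, n = 3).

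Cxcl10 stood at 4.43, 6.78 and 4.87 CPM in the adipose control libraries and at 9.95, 7.60 and 11.1 CPM in OA-AP mice (log2 fold change 0.83 ± 0.22, adjusted p = 0.0238). The groups came within 1 CPM of each other. Cxcl10 overlaps Art3 on the opposite strand, which reached 9294 counts in adipose tissue against 219 for Cxcl10, so reads of Art3 may enter its value. Cxcl9 did not pass (adjusted p = 0.865). It stood at 40.4, 74.7 and 42.2 CPM in controls against 24.2, 121 and 29.4 CPM in OA-AP mice. OA-AP replicate 2 was 4.47-fold over its group in Cxcl9, 3.83-fold in Gbp2, 2.03-fold in Gbp3 and 2.00-fold in Gbp7, and in none of the other 32 genes by 2-fold or more. These folds over the other libraries of a group were taken from log2(CPM + 0.5).

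Control replicate 2 stood apart from the other adipose libraries. It was the highest of the 3 adipose controls in 35 of the 36 genes, against 32.9% of all genes, with a median of 2.31-fold over the mean of the other controls, and it was 2-fold or more over them in 23 of the 36 genes and in 1.29% of all genes. The leading genes, chosen after their values were seen, were Ifit3 at 74.1 CPM against 17.5 and 14.6 CPM, Rtp4 at 68.0 CPM against 18.9 and 13.9 CPM, and Ifit1 at 36.5 CPM against 10.3 and 7.45 CPM. Isg15 stood at 18.6 CPM against 5.98 and 3.85 CPM. The exception among the 36 was Ifitm1. The same library held the acinar transcripts named above, and its summed B and plasma cell markers (7 genes) were 548 CPM against 218 and 92.4 CPM in the other controls, its summed T and NK cell markers (11 genes) 22.8 CPM against 14.1 and 9.19 CPM. The part of these cells in the levels of the family was not tested. Each gene's deviation is drawn in the plot of libraries against their own group.

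**Figure D3:**
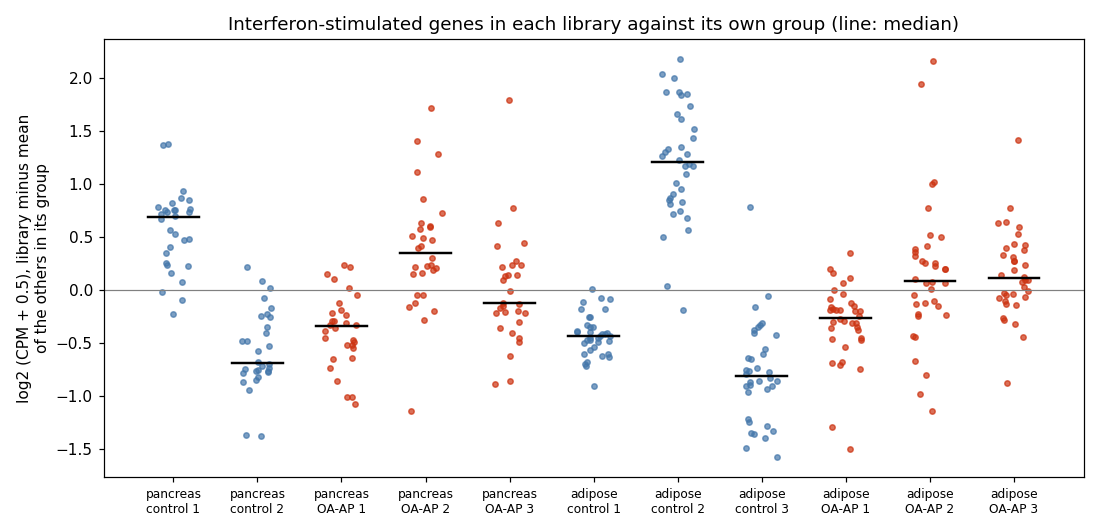
Each point is 1 gene in 1 library: log2(CPM + 0.5) minus the mean of the other libraries of the same tissue and group, for the 30 genes tested in the pancreas and the 36 tested in adipose tissue, with a line at the median (control blue, OA-AP red). Adipose control 2 has a median of 1.207, pancreas control 1 a median of 0.687, and the medians of the OA-AP libraries of either tissue lie between -0.341 and 0.350.

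Without adipose control replicate 2, 13 genes were upregulated and 0 downregulated, against 11.4% and 10.8% of all genes in that fit, and the 36 genes had a median of 0.596 on the log2 scale where all genes had 0.001. The sign was positive in 31 of 36 genes and in 50.0% of all genes. The 9 added genes were Ifi35, Ifit1, Irf9, Isg15, Oas1a, Oas2, Oas3, Oasl1 and Stat2, which include 4 of the 5 OAS family genes and the Stat2 and Irf9 parts of ISGF3. In that fit Oas3 had a log2 fold change of 1.83 ± 0.31 (adjusted p = 0.0096), Ifit1 one of 1.35 ± 0.21 (adjusted p = 0.00807), Isg15 one of 1.09 ± 0.28 (adjusted p = 0.034) and Stat2 one of 0.88 ± 0.13 (adjusted p = 0.00741), against values of 0.81, 0.32, 0.14 and 0.18 with all libraries. Irf7, Bst2, Usp18, Xaf1 and Oasl2 had log2 fold changes between 0.009 and 0.235 in that fit and did not pass. The labels and methods give no reason to leave this library out, so both values are given. With OA-AP replicate 2 also left out, 12 genes were upregulated and 2, Ifit2 and Cxcl9, were downregulated, against 13.6% and 14.1% of all genes. Without control replicate 1, control replicate 3, OA-AP replicate 1 or OA-AP replicate 3 in turn, the upregulated genes numbered 2, Ifitm1 and Ifitm2. Of all genes 9.68% to 11.2% were upregulated in those fits. With library totals alone, on which the all-gene median was -0.166, Ifitm3 did not pass and Cmpk2, Ifit2 and Irf1 were downregulated. On that scale 18.2% of all genes were downregulated.

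**Figure D4:**
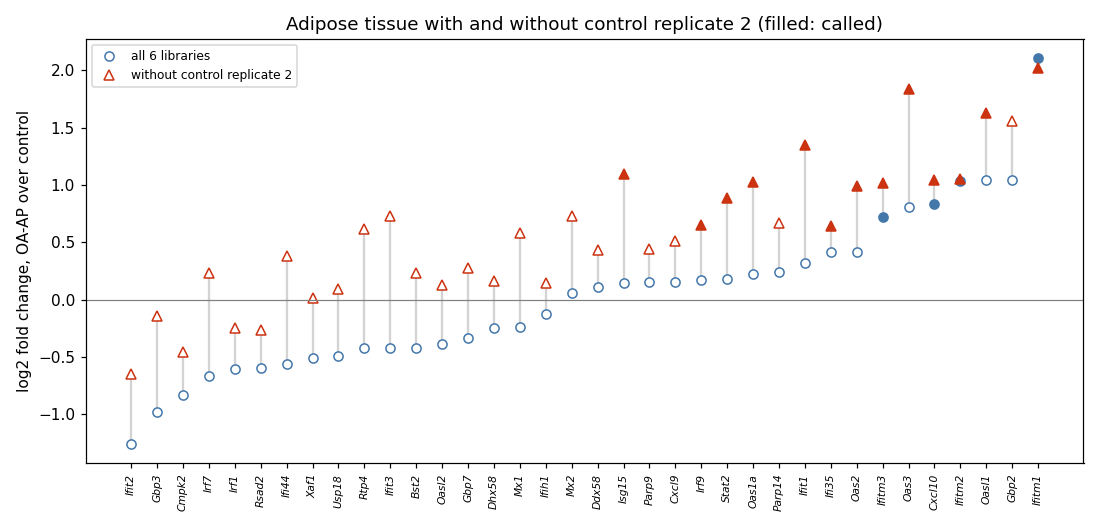
Log2 fold change of each of the 36 genes in adipose tissue, OA-AP over control, with all 6 libraries (blue circles) and without control replicate 2 (red triangles), in order of the first; filled symbols passed both thresholds. The count of filled symbols is 4 for the circles and 13 for the triangles, and Ifitm1 and Ifitm2 barely move.

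The changes of the tissues were then set against each other in 1 model over all 11 libraries, which tests the change in the pancreas minus the change in adipose tissue. Of the 36 genes, 6 entered this fit through their adipose counts alone, so signs are counted over the 30 genes that were also tested in the pancreas. The difference was negative in 30 of these 30 genes and in 47.8% of all 17046 genes, with a median of -0.958 for the 30 genes and 0.055 for all genes. Of the 20 genes with at least 10 counts in every library, it was negative in 19, where 49.6% of all genes were positive. On library totals alone, counted over all 36 genes, it was negative in 22, where 81.1% of all genes were positive. Oas2 alone passed on that scale, with 2.3% of all genes called lower in the pancreas, so these counts depended on the scaling. The median of the 36 genes minus that of all genes was -1.014 on either scale. In 3 of the 36 genes the difference passed an adjusted p of 0.05, each lower in the pancreas, and in 0 it was higher, against 10.8% and 10.5% of all genes, so the share of the family was not above that of all genes. At an unadjusted p under 0.05 the counts were 11 and 0, against 16.7% and 17.0% of all genes. Oas2 differed by -3.55 ± 0.83 on the log2 scale (adjusted p = 0.0132), Ifitm3 by -1.70 ± 0.35 (adjusted p = 0.00593) and Ifitm2 by -0.99 ± 0.21 (adjusted p = 0.00598). Of these, Ifitm3 was downregulated in the pancreas and upregulated in adipose tissue, Ifitm2 was upregulated in adipose tissue with a pancreas change of 0.03, and Oas2 was downregulated in the pancreas with an adipose change of 0.42. In adipose tissue Oas2 stood at 28.4, 61.0 and 21.6 CPM in controls against 42.0, 43.7 and 62.3 CPM in OA-AP mice, which overlapped. Ifitm1 had a log2 fold change of 1.82 in the pancreas and 2.10 in adipose tissue, with a difference of -0.27 ± 0.97 (adjusted p = 0.905). Without adipose control replicate 2 the difference passed in 16 of the 30 genes, among them Ifit3 at -4.38 and Irf7 at -3.18, and in all 16 it was lower in the pancreas, as it was in 8.52% of all genes in that fit. Ifit1 and Ifi44, which had too few pancreas counts to be tested there, passed as well.

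Genes around the family were taken from lists of the interferon pathway. Of 14 interferon genes 0 could be tested in either tissue. All 14 had 0 counts in each pancreas library, which allows up to 3 counts per library, and 11 of them had 0 counts in each adipose library. The other 3, Ifng, Ifne and Ifnk, had at most 4, 5 and 1 counts in an adipose library, too few for a comparison. Of 6 receptors, Ifnlr1 (log2 fold change 1.81, adjusted p = 0.00172) and Ifnar1 (0.92, adjusted p = 0.0078) were upregulated in the pancreas and Ifngr2 (0.63, adjusted p = 0.00685) in adipose tissue. Of 5 kinases and STATs, 2 were upregulated and 1 was downregulated in the pancreas, and 3 were upregulated and 0 downregulated in adipose tissue. Stat3, which carries interleukin-6 signals, was upregulated in the pancreas by 8.44-fold (adjusted p = 0.000252) and in adipose tissue by 2.57-fold (adjusted p = 0.00107). Jak2 was upregulated in the pancreas by 1.86-fold and in adipose tissue by 1.62-fold. Socs3, a feedback inhibitor of Jak signaling, stood at 4.29 and 3.29 CPM in the control pancreas and at 41.1, 32.3 and 128 CPM in the OA-AP pancreas (log2 fold change 4.14 ± 0.86, adjusted p = 0.0236), and it rose 14.7-fold in adipose tissue (adjusted p = 0.000179). With TMM factors 16.2% of all pancreas genes and 12.1% of all adipose genes were upregulated, and 13.5% and 13.0% were downregulated. On library totals the upregulated receptors numbered 4 in the pancreas and 0 in adipose tissue and the upregulated kinases and STATs 3 and 1. The downregulated kinases and STATs then numbered 1 in the pancreas and 0 in adipose tissue. On that scale 45.4% of all pancreas genes and 8.62% of all adipose genes were upregulated, and 3.93% and 18.2% were downregulated.

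Beyond the 36 genes, 72 other interferon-stimulated genes were listed. In the pancreas 50 were tested, 17 were downregulated and 2 upregulated (13.5% and 16.2% of all genes were), with a median log2 fold change of -0.646. With library totals alone the counts were 7 and 10, where 3.93% and 45.4% of all genes were. The median was then 0.046, against 0.749 for all genes. Without pancreas control replicate 1, which left 1 control library, the median was -0.354, against 0.078 for all genes. Ifi27, a mitochondrial interferon target, stood at 212 and 145 CPM in controls against 22.3, 33.4 and 24.2 CPM in OA-AP mice (log2 fold change -2.75 ± 0.23, adjusted p = 0.000238). Mndal and the nuclear body protein Sp100 fell by 2.32 and 1.88 on the log2 scale, and Ifi205 rose by 2.42. In adipose tissue 70 were tested, 7 were upregulated and 6 downregulated, with a median of -0.186, and neither share was above the 12.1% and 13.0% of all genes. Shisa5 and Ifi207 rose by 1.06 and 1.61 on the log2 scale and Ifitm6, in the Ifitm gene cluster, rose by 1.01, while Gbp2b went from 1.40, 4.53 and 1.36 CPM to 0.0518, 0 and 0 CPM. Without adipose control replicate 2 these counts were 11 and 2, against 11.4% and 10.8% of all genes, with a median of 0.135.

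Of 17 genes listed for class I antigen processing, which interferons also induce, 7 were downregulated and 0 upregulated in the pancreas (median log2 fold change -0.611). These counts are to be read against the same 13.5% and 16.2% of all genes, as are the pancreas counts that follow. The immunoproteasome subunit Psmb10 stood at 88.5 and 112 CPM in controls against 19.1, 23.8 and 22.8 CPM in OA-AP mice (log2 fold change -2.20 ± 0.16, adjusted p = 0.000114), and B2m, the light chain of class I molecules, at 68.6 and 47.2 CPM and at 19.2, 25.6 and 19.5 CPM (log2 fold change -1.44 ± 0.20, adjusted p = 0.00158). On library totals 2 were downregulated and 2 upregulated, against 3.93% and 45.4% of all genes. Without pancreas control replicate 1, which left 1 control library, the median log2 fold change of the 17 genes was -0.484. In adipose tissue 1 of the 17 listed genes was downregulated and 0 were upregulated. That gene was Ciita, the class II transactivator and not itself a class I gene (log2 fold change -1.25, adjusted p = 0.0121). Of 17 nucleic acid sensors and adaptors, Myd88, Trim25 and Tmem173 (STING) were upregulated and Ikbke downregulated in the pancreas, where 12 were tested. In adipose tissue, where 12.1% and 13.0% of all genes were, 6 were upregulated and 1 downregulated, led by Tmem173 (3.59-fold), Myd88 (3.09-fold), Ifi204 (3.14-fold) and Traf3 (1.63-fold). Of 13 genes listed as negative regulators, Ptpn11, Ptpn2 and Socs3 were upregulated in the pancreas, and Socs3, Ptpn2, Ptpn1 and Ptpn6 in adipose tissue. Isg20 of the same list, itself an interferon-stimulated exonuclease, was downregulated in the pancreas. Of 8 other interferon regulatory factors, Irf4 was downregulated in adipose tissue (7.75-fold lower). With library totals alone, 6 of 12 sensors and adaptors and 6 of 10 negative regulators tested were upregulated in the pancreas and 0 of each were downregulated. On that scale 45.4% of all pancreas genes were upregulated and 3.93% downregulated. In adipose tissue the upregulated sensors and adaptors then numbered 3 and the downregulated genes of the class I list 5, Ciita among them. Of all adipose genes 8.62% were upregulated and 18.2% downregulated there.

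Markers of other cell types were read in the same libraries. In the pancreas 17 of 26 acinar markers were downregulated and 1 upregulated, against 13.5% and 16.2% of all genes. Of the 10 macrophage and monocyte, 8 neutrophil and 2 B and plasma cell markers that could be tested there, 0 were upregulated, and 1, 0 and 1 were downregulated. The summed macrophage and monocyte markers (12 genes) were 62.4 and 32.3 CPM in controls against 57.1 to 118 CPM in OA-AP mice, the neutrophil markers (10 genes) 1.97 and 2.89 CPM and 4.63 to 108 CPM, the T and NK cell markers 1.63 and 2.09 CPM and 0 to 0.628 CPM, and the B and plasma cell markers 6.95 and 3.99 CPM and 2.61 to 4.15 CPM. T and NK cell markers were thus near the floor in every pancreas library, with Cd3e at 4 and 2 counts in controls against at most 1 in the OA-AP libraries. In adipose tissue 7 of the 9 T and NK cell markers tested and 6 of 7 B and plasma cell markers were downregulated, as were 5 of 6 fibroblast markers. Of 7 neutrophil markers tested 6 were upregulated, and of 12 macrophage and monocyte markers 6 were upregulated and 1 downregulated. Of all adipose genes 12.1% were upregulated and 13.0% downregulated. The part of these cell types in the levels of the interferon-stimulated genes was not tested.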

How the data were processed

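RNA sequencing counts of 11 libraries were analysed. The authors trimmed reads with Trim Galore 0.6.6, checked them with fastp 0.20.1, used STAR to map them to GRCm38 and featureCounts 2.0.1 to count them, and deposited raw, unnormalized counts for each gene and sample. The library kit does not mark strand, and the strand setting and annotation release are not given in the sources used here. Every row of the tables names a gene. Coordinates of promoters are from RefSeq on GRCm38.p6.

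Each tissue was tested apart with edgeR 4.0.16 (filterByExpr, TMM, robust quasi-likelihood test, R 4.3.3), with standard errors taken as the log2 fold change over the square root of F, and the tissue by condition term was tested over the genes of both tables. DESeq2 1.42.0 and other scalings, filters and left-out libraries were alternatives. The tests were tested on simulated data, in which 187, 191 and 122 of 200 genes changed 4-fold were recovered by edgeR in the pancreas (12699 genes), adipose tissue (15563) and the tissue by condition term (16625), with 23, 20 and 3 unchanged genes called. The changed genes were drawn only from those over a floor on mean counts, and all others stayed unchanged. Some members, such as Mx2 in the pancreas, lie under that floor, where recovery was not tested. Members, roles and lists were chosen with earlier results of these data known. Values in every library were given for up to 12 genes with the largest change among those called in a tissue and for those called in the tissue by condition test, and pathway genes were named where called, up to 4 for each list and tissue by p-value. Replicates differed by more than counting noise (chi-square per degree of freedom of 7.556 or more), and since the labels do not say that they are separate animals, p-values measure the spread between these samples. Counts carry no molecular identifiers and are not independent molecules, and floors of 3 counts cover counting error only. Libraries of the same number had correlations of deviations from -0.175 to 0.123. With so few libraries in a group, these cannot decide whether such libraries came from the same mouse. The main tissue by condition test took all libraries as independent. Some genes of the pathway lists are not reported here by name.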

Additional observations from a re-analysis of the deposited data

Results flagged for a closer look

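The change in the pancreas differed from the change in adipose tissue in 3 of the 36 genes by the tissue by condition test, where the change was lower in the pancreas in 10.8% of all genes. On the log2 scale, pancreas minus adipose, the difference was -1.699 for Ifitm3, -0.994 for Ifitm2 and -3.551 for Oas2, and each was lower in the pancreas. With library totals alone only Oas2 passed among the 3. Under the replicate block Ifitm3 and Oas2 did not pass, and without pancreas control replicate 1 or without a filter on low counts Oas2 did not pass. No group held more than 3 libraries, so single libraries that stand apart could not be tested as outliers.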

How the results depend on the processing

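In the pancreas, 13 genes were downregulated and 0 upregulated as reported. Library totals alone gave 6 and 3, against 3.93% and 45.4% of all genes. The fit with no filter on low counts gave 1 upregulated gene, Ifitm1, where 11.3% of all genes were upregulated. Leaving out 1 OA-AP library at a time gave 8 to 17 downregulated genes, against 9.88% to 17% of all genes. Leaving out control replicate 1 moved the median of the family from -1.27 to -0.82. In adipose tissue, 4 upregulated and 0 downregulated genes became 3 downregulated with library totals alone, 2 with the DESeq2 test and 1 with the replicate block. Of all genes 18.2%, 13.2% and 10.9% were downregulated in those fits. The fold threshold of 2 left 2 upregulated genes, against 6.32% of all genes. Leaving out 1 library at a time gave 2 to 13 upregulated and 0 to 1 downregulated genes, and leaving out adipose control replicate 2 and OA-AP replicate 2 together, an alternative chosen after seeing the data, gave 12 and 2. The 3 genes of the tissue by condition test became 1 with library totals alone and 9 with the DESeq2 test, against 2.3% and 14.1% of all genes called lower. With 1 OA-AP or adipose library left out they became 3 to 18, against 7.75% to 11.4% of all genes. Without those 2 adipose libraries they became 15, against 9.38%. The cause of these changes was not tested. Whether the replicate numbers pair the samples is not known. The fit with the replicate block gave 13 downregulated pancreas genes (Usp18 passed and Oas2 did not, adjusted p = 0.139), against 14.3% of all genes. It gave 3 upregulated adipose genes (without Cxcl10, adjusted p = 0.0627), against 11% of all genes. In the tissue by condition test it gave 2 genes, Ifitm2 and Gbp2, against 6.24% of all genes lower in the pancreas. No called gene changed sign under any alternative run, and Bst2, Ifit3 and Irf7 in the pancreas and Ifitm1 and Ifitm2 in adipose tissue passed under every alternative that tested them. Depth limits the genes with few counts in the pancreas: Isg15 had 6 to 21 counts per library, and Mx1, Oas3, Cxcl9 and Cxcl10 had too few to be tested.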
